A study of Mus musculus with 25 samples.

Results

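The genes described here encode the subunits of the mitochondrial respiratory chain and of the ATP synthase that lie in nuclear DNA. Members were the genes whose array annotation gave 1 symbol that begins Nduf with a, b, c, s or v and a digit, is Sdha, Sdhb, Sdhc or Sdhd, begins Uqcr, is Cyc1, begins Cox with 4 to 8, or begins Atp5. Names of pseudogenes were left out, as were Cox8b and Cox7a1, which mark brown fat and muscle. Where a gene had several transcript clusters, the cluster with the highest mean over all arrays stood for it. This gave 77 of the 22180 genes measured: 31 of complex I, 4 of complex II, 8 of complex III, 17 of complex IV and 17 of complex V, the ATP synthase. Ndufa4 and its relative Ndufa4l2 were counted with complex IV. Cox6c, Ndufb2, Ndufb4, Ndufs6 and Uqcr10 were measured by clusters that name several genes and are not members. All 77 members were tested, with no filter on low values.

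Gonadal white fat of male mice was profiled on 25 Affymetrix Mouse Gene 2.0 ST arrays, each labelled as a biological replicate. All mice were heterozygous apoE3L.CETP, that is, they carry the human APOE*3-Leiden and CETP transgenes, which give a more human-like lipoprotein profile, and all groups share them. From the age of 12 weeks they ate either a diet rich in fat to which cholesterol was added (HFD) or a low-fat diet (LFD). HFD was measured in 3 mice at 4 weeks, 4 at 8 weeks and 4 at 12 weeks, LFD in 4 mice at each of these times, and 2 mice on chow were measured at the start. The labels give ages of 16 and 20 weeks for the 4-week and 8-week groups and 34 weeks for both 12-week groups, so time on diet is used here. The 2 diets differ in carbohydrate as well as in fat and cholesterol, so these cannot be told apart.

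Complex I takes electrons from NADH and complex II takes them from succinate. Both pass them through coenzyme Q to complex III, cytochrome c and complex IV, which reduces oxygen, and the protons pumped on the way drive the ATP synthase. A few core subunits are encoded in mitochondrial DNA and all others in the nucleus. In white fat this machinery supports fatty acid and triglyceride synthesis, and it is sparse beside that of brown fat. PGC-1α (Ppargc1a) and PGC-1β (Ppargc1b) are coactivators of its nuclear genes and work through the factors NRF1, GABP (an ETS factor) and ERRα. YY1 is a further factor known to bind promoters of such genes.

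Many of these genes were lower on HFD than on LFD, by small amounts. Averaged over the 3 times, 39 of 77 members were lower on HFD than on LFD and 1 was higher. Of all genes, 4.44% were lower and 6.03% higher. The median member differed by -0.22 on the log2 scale, which is 14.1% lower, against -0.01 over all genes. Here and below, fell and rose mean lower or higher on HFD than on LFD, and not a change over time. In complexes II and III, 3 of 4 and 7 of 8 members fell. None of the 10 measured subunits encoded in mitochondrial DNA passed the test. The median member difference was -0.11 at 4 weeks, -0.27 at 8 weeks and -0.29 at 12 weeks. Without the 3 arrays that held epididymis transcripts, the 4-week median was -0.04. The interaction of diet and time was not called in any member.

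Because so many members moved together, their promoters are shown for the letters that these regulators are known to bind. RefSeq promoters (GRCm38.p6, 250 bases before to 50 after the start) were held for 62 of the 77 members and 27025 genes in all. They were searched on both strands for GCGCATGCG (NRF1), CCGGAAGT (ETS), AAGATGGCG (YY1) and TCAAGGTCA (ERR), none of which lies within another. Longer forms of the NRF1 and YY1 strings were tried first and matched fewer promoters. The NRF1 letters were in 12.9% of the member genes and 1.95% of all genes. The ETS letters were in 8.06% of member genes and 4.31% of all genes. The YY1 letters were in 9.68% of member genes and 1.64% of all genes, and the ERR letters in 3.23% of member genes and 0.466% of all genes. These shares rest on 8, 5, 6 and 2 members. The promoters printed are those of the lower members with the NRF1 letters (Uqcrc1, Atp5g2 and Atp5l) and the ERR letters (Sdhd and Atp5g3), and of Sdha, the member with the smallest p, which held none of the 4 strings. Capitals mark the matched letters on either strand; the ERR match and the Atp5l match lie on the opposite strand, so their reverse complement is read. In Uqcrc1 and Atp5g2 a match on each strand overlaps the other.
Uqcrc1 (chr9:108936398-108936697, plus strand): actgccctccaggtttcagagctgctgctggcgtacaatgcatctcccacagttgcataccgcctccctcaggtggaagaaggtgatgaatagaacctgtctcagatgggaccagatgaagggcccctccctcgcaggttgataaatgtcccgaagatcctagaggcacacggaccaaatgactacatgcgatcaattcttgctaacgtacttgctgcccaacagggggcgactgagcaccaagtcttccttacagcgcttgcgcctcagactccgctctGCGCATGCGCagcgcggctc
Atp5g2 (chr15:102670998-102671297, minus strand): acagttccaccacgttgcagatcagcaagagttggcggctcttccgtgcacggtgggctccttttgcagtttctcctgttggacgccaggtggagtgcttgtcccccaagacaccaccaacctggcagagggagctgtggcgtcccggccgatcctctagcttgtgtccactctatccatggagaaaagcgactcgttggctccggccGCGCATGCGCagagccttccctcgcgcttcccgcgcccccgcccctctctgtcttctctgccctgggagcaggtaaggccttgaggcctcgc
Atp5l (chr9:44920693-44920992, minus strand): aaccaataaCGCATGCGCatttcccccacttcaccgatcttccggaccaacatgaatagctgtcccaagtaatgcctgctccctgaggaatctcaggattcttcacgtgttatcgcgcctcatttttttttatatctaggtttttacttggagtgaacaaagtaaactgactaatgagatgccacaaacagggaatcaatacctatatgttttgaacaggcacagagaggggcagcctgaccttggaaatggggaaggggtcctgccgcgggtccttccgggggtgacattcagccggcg
Sdhd (chr9:50603800-50604099, minus strand): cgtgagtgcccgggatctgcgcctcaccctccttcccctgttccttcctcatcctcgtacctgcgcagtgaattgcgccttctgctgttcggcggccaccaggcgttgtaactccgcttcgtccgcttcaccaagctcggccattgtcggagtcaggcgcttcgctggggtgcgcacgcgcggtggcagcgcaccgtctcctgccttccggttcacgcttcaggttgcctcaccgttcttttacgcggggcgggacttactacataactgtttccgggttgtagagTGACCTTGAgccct
Atp5g3 (chr2:73911277-73911576, minus strand): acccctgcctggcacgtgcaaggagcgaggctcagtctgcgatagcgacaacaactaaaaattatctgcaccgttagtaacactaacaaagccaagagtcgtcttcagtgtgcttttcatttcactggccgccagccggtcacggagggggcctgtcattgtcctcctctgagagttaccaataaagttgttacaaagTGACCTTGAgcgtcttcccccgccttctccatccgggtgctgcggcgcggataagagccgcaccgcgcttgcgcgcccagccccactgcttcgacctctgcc
Sdha (chr13:74350191-74350490, minus strand): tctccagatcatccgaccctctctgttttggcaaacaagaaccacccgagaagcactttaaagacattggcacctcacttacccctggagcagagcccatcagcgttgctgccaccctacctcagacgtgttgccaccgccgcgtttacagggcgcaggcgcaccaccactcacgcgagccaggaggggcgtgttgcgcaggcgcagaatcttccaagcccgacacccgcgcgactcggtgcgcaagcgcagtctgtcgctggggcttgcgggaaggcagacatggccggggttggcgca
Of the 31 lower members with a promoter entry, 3 held the NRF1 letters, against 5 of the 31 other members. The ETS letters were in 2 lower members (Uqcrh and Atp5h), against 3 of the others (Ndufs3, Uqcr11 and Cox8a). The YY1 letters were in 4 lower members (Ndufa9, Ndufs4, Ndufs7 and Atp5j), against 2 of the others (Ndufc1 and Atp5j2), and the ERR letters in 2 lower members, against 0 of the others. A match is a description of these letters and not a binding site, and these counts were not tested.

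Tissue markers bear on every diet difference below. In bulk tissue, fewer cells of a type and less RNA per cell cannot be told apart. Adipoq, the fat cell hormone adiponectin, lay between 11.18 and 11.80 in all arrays but chow replicate 1, at 10.62, and Ucp1, the brown fat uncoupler, was at 4.52 or below. Transcripts of hepatocytes averaged 8.70 to 10.57 over 27 genes in 11 of the 16 arrays at 8 and 12 weeks (3 HFD and 2 LFD at 8 weeks, 3 HFD and 3 LFD at 12 weeks) and at most 6.99 elsewhere. Albumin reached 12.96 to 13.62 in those 11 arrays. Elsewhere it ran from 6.45 in HFD 12-week replicate 3 to 11.84 in LFD 12-week replicate 3. It was 11.64 in LFD 4-week replicate 1, 11.4 in HFD 4-week replicate 1 and 10.46 in HFD 8-week replicate 1. Transcripts of the epididymis, the duct beside this fat depot, averaged 12.17 over 10 genes in chow replicate 1 and 10.64 in HFD 4-week replicate 1, 5.43 in LFD 4-week replicate 1 and at most 3.94 elsewhere. All 10 macrophage genes rose on HFD in the average. Their mean goes with diet, so their part in the member differences cannot be told apart from that of diet. A fit with this mean as a covariate is given below and does not separate them. The macrophage mean was 8.56 to 9.96 on HFD and 7.74 to 7.89 on LFD at 8 weeks, and 9.07 to 9.89 on HFD and 7.47 to 8.10 on LFD at 12 weeks. In the 7-gene brown adipocyte list, 2 genes fell and 1 rose in the average, with a median of -0.03, and the list means overlapped between the diets at each time. Cidea, a lipid droplet protein, differed by -0.83 ± 0.13 (adjusted p = 0.000141), Cox8b, a form of a complex IV subunit that the rule for members left out, by -0.49 ± 0.13 (adjusted p = 0.0125), and Otop1, a proton channel, by 0.81 ± 0.16 (adjusted p = 0.00163). At 8 weeks the differences were -1.07 ± 0.21 (adjusted p = 0.00913) in Cidea and -1.01 ± 0.21 (adjusted p = 0.0126) in Cox8b. In the 8-gene skeletal muscle list limma called 0 genes in the average and at each time, and at an unadjusted p under 0.05 there were 2 genes in the average, 0 at 4 weeks, 1 at 8 weeks and 2 at 12 weeks. Its mean was 5.23 to 5.42 on HFD and 5.58 to 5.73 on LFD at 8 weeks, without overlap, and 5.22 to 5.4 on HFD and 5.28 to 5.62 on LFD at 12 weeks, with overlap. The muscle gene with the smallest p at 8 weeks was Acta1, skeletal alpha-actin, at -0.94 ± 0.28 (adjusted p = 0.0762). The part of brown adipocyte and muscle transcripts in the member differences was not tested. The adipocyte list had a median difference of -0.02, with 1 of 11 genes higher (Lep, leptin) and 0 lower in the average.

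Over the arrays, the mean of the 77 members was 8.50 to 8.66 on HFD and 8.56 to 8.71 on LFD at 4 weeks, with overlap. At 8 weeks it was 8.52 to 8.67 on HFD and 8.79 to 8.89 on LFD, and at 12 weeks 8.40 to 8.54 on HFD and 8.63 to 8.74 on LFD. At these later times every HFD array lay below every LFD array. The group means at 4, 8 and 12 weeks were 8.57, 8.59 and 8.46 on HFD and 8.64, 8.85 and 8.69 on LFD. The chow arrays lay at 8.32 (replicate 1, rich in epididymis transcripts) and 8.59. Among arrays with many hepatocyte transcripts the median member difference was -0.27 at 8 weeks (3 HFD, 2 LFD arrays) and -0.27 at 12 weeks (3 of each). Among the others it was -0.35 at 8 weeks (1 HFD, 2 LFD arrays) and -0.25 at 12 weeks (1 of each). These others were not matched for liver transcripts. Their hepatocyte means were 6.39 on HFD against 5.08 and 5.29 on LFD at 8 weeks, and 4.87 on HFD against 6.99 on LFD at 12 weeks. HFD 8-week replicate 1 and HFD 12-week replicate 1 had the highest macrophage means, 9.96 and 9.89. Their member means, 8.52 and 8.54, were the lowest and the highest of their groups. HFD 12-week replicate 3, with the next highest macrophage mean, 9.82, had the lowest member mean of its group, 8.40. How macrophage and member means go together within groups was not tested.

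**Figure D1:**
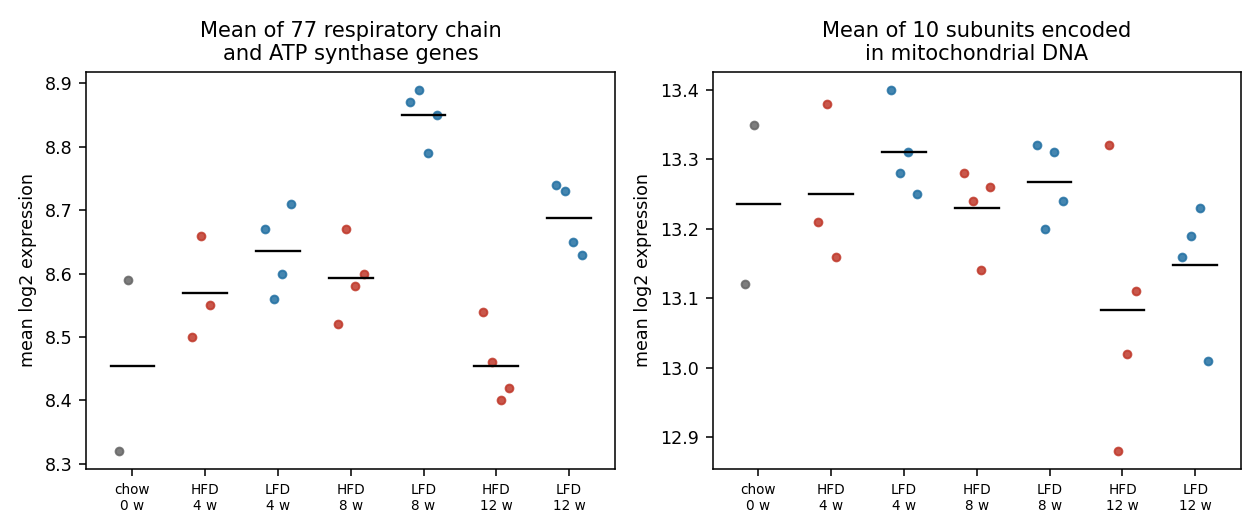
Mean log2 expression (vertical axes) in each array (points) by diet and weeks on diet, with group means as bars, for the 77 nuclear members (left) and 10 subunits encoded in mitochondrial DNA (right). On the left, HFD arrays lie below all LFD arrays at 8 and 12 weeks; on the right the groups overlap at every time.

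The averaged diet difference (HFD minus LFD, equal weight to each time) called 40 of 77 members with limma at a Benjamini-Hochberg adjusted p under 0.05, where 10.5% of all genes were called. By direction, 39 members were lower and 1 was higher. In all, 68 members lay below 0, where 53.1% of all genes did. At each of the 3 times 51 of the 77 members lay below 0, among them 38 of the 39 lower members. Those 39 were picked by the mean of the same 3 differences, so their count is largely built in. The share of all genes below 0 at all 3 times was not counted. The largest fall was in Sdha, at -0.44 ± 0.07 (adjusted p = 0.000268), or 26.3% lower. In the average no member reached the 1.5-fold change of the study's own criterion, so that criterion (analysis of variance, unadjusted p under 0.05) called 0 members. At single times it called Atp5d at 4 weeks (2.1% of all genes), and Ndufa10 and Cyc1 at 8 weeks (3.67%). At 12 weeks it called 0 members (5.12%). For the average with the macrophage mean as a covariate, limma called 0 members and 0 of all genes, and the median member difference was -0.15. At an unadjusted p under 0.05 that fit had 11 members, where 7.0% of all genes passed. Among the 14 arrays with a hepatocyte mean under 8, 0 members were called and the median was -0.26, and 26 members had an unadjusted p under 0.05, where 11.3% of all genes did.

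**Figure D2:**
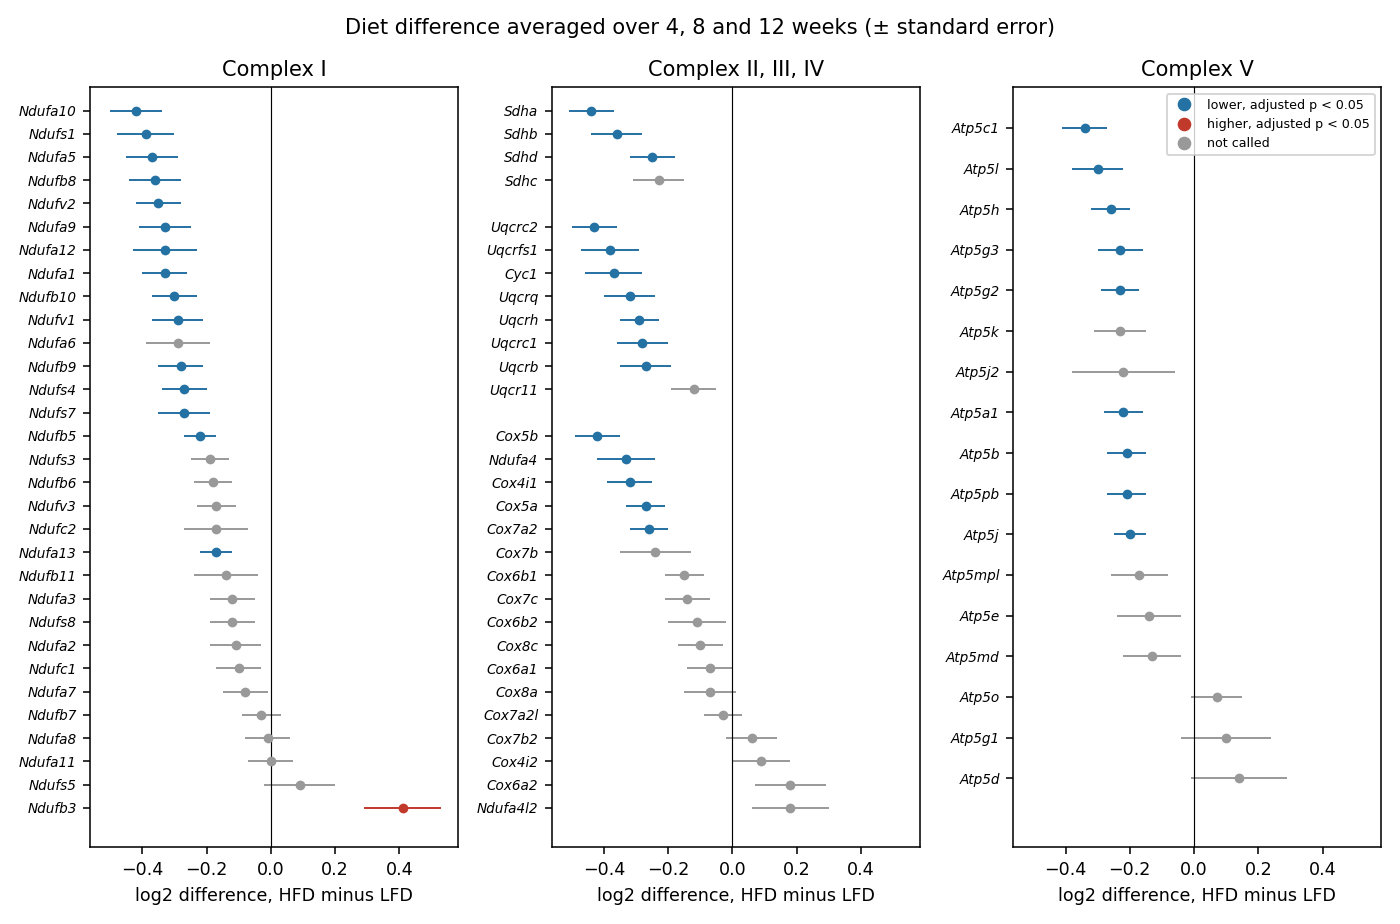
Averaged log2 difference, HFD minus LFD, of each member (points, with standard error) by complex. Blue members were lower, the red member (Ndufb3) higher and grey ones not called; 39 of the 77 are blue.

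Complex I, the NADH dehydrogenase, had 15 of 31 members lower and 1 higher, with a median difference of -0.19. Of its 6 measured core subunits, among them those that carry the flavin and iron-sulfur clusters, 4 fell. These include Ndufs1, which holds iron-sulfur clusters, at -0.39 ± 0.09 (adjusted p = 0.00447), and Ndufv1, which binds the flavin that accepts electrons from NADH, at -0.29 ± 0.08 (adjusted p = 0.0152). Of the 25 supernumerary subunits, which surround the core, 11 fell. Ndufa5 differed by -0.37 ± 0.08 (adjusted p = 0.0036), Ndufb8 by -0.36 ± 0.08 (adjusted p = 0.00286), Ndufa1 by -0.33 ± 0.07 (adjusted p = 0.00282) and Ndufb10 by -0.30 ± 0.07 (adjusted p = 0.00578). Ndufa9, Ndufb5, Ndufb9 and Ndufs4 also fell, by differences of -0.22 to -0.33.

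Ndufa10, a supernumerary subunit of the membrane arm, had the smallest p of complex I, with an average difference of -0.42 ± 0.08 (adjusted p = 0.000724). Ndufa10 levels at 4 weeks were 10.13, 10.32 and 10.19 in HFD mice, against 9.95, 10.32, 10.44 and 10.66 in LFD mice. At 8 weeks Ndufa10 levels were 10.06, 10.32, 10.39 and 10.35 in HFD mice, against 10.94, 11.02, 10.74 and 10.77 in LFD mice. At 12 weeks Ndufa10 levels were 9.95, 10.21, 10.22 and 10.03 in HFD mice, against 10.74, 10.59, 10.60 and 10.60 in LFD mice. Its groups overlapped at 4 weeks and were apart at 8 and 12 weeks, with differences of -0.59 ± 0.13 (adjusted p = 0.0161) and -0.53 ± 0.13 (adjusted p = 0.0166). Ndufv2, an iron-sulfur core subunit beside the NADH site, differed by -0.35 ± 0.07 (adjusted p = 0.00141) in the average. Ndufv2 levels at 4 weeks were 9.38, 9.29 and 9.26 in HFD mice, against 9.84, 9.31, 9.61 and 9.66 in LFD mice. At 8 weeks Ndufv2 levels were 9.02, 9.39, 9.22 and 9.43 in HFD mice, against 9.74, 9.64, 9.55 and 9.81 in LFD mice. At 12 weeks Ndufv2 levels were 9.36, 9.0, 8.95 and 9.04 in HFD mice, against 9.43, 9.47, 9.43 and 9.36 in LFD mice. The groups touched at 12 weeks, where HFD replicate 1 and LFD replicate 4 were equal, and were apart at 8 weeks.

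Ndufb3, a small membrane arm subunit, was the one member higher on HFD, at 0.41 ± 0.12 (adjusted p = 0.0238). Ndufb3 levels at 4 weeks were 8.94, 9.07 and 9.01 in HFD mice, against 8.37, 8.36, 8.64 and 8.47 in LFD mice. At 8 weeks Ndufb3 levels were 9.48, 8.80, 8.86 and 8.77 in HFD mice, against 8.87, 8.20, 8.47 and 8.53 in LFD mice. At 12 weeks Ndufb3 levels were 9.39, 8.48, 8.53 and 8.91 in HFD mice, against 8.73, 8.77, 8.50 and 8.42 in LFD mice. All HFD mice were above all LFD mice at 4 weeks, and the groups overlapped at 8 and 12 weeks. The highest values, HFD 8-week replicate 1 and HFD 12-week replicate 1, were from the arrays with the highest macrophage means. With that mean as a covariate none of the 40 called members was called: the Ndufb3 difference was 0.01, and those of the 39 lower members ran from -0.50 in Cox5b to -0.05 in Cox5a and Sdhd.

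Complex II, succinate dehydrogenase, is also an enzyme of the tricarboxylic acid cycle and has no subunit in mitochondrial DNA. It had 3 of 4 members lower, with a median of -0.31. Sdha carries the flavin that oxidises succinate. Sdha levels at 4 weeks were 11.12, 11.26 and 11.05 in HFD mice, against 11.17, 11.35, 11.65 and 11.63 in LFD mice. At 8 weeks Sdha levels were 10.85, 11.22, 11.10 and 11.28 in HFD mice, against 11.63, 11.71, 11.58 and 11.76 in LFD mice. At 12 weeks Sdha levels were 10.91, 11.12, 10.99 and 10.97 in HFD mice, against 11.48, 11.38, 11.55 and 11.46 in LFD mice. All HFD mice were below all LFD mice at 8 and 12 weeks, with differences of -0.56 ± 0.12 (adjusted p = 0.0175) and -0.47 ± 0.12 (adjusted p = 0.0273), and the groups overlapped at 4 weeks. Sdhb, the iron-sulfur subunit, differed by -0.36 ± 0.08 (adjusted p = 0.00511) in the average. Sdhb levels at 4 weeks were 9.02, 9.16 and 9.04 in HFD mice, against 9.21, 9.20, 9.32 and 9.46 in LFD mice. At 8 weeks Sdhb levels were 8.85, 9.36, 9.16 and 8.96 in HFD mice, against 9.46, 9.90, 9.44 and 9.43 in LFD mice. At 12 weeks Sdhb levels were 8.94, 8.97, 8.77 and 8.86 in HFD mice, against 9.33, 9.31, 9.16 and 9.31 in LFD mice. Its groups did not overlap at any of the 3 times, although no single time passed the test. The membrane anchor Sdhd, whose promoter with the ERR letters is printed above, differed by -0.25 ± 0.07 (adjusted p = 0.0156). The other anchor, Sdhc, had a value of -0.23 ± 0.08 (adjusted p = 0.0611) and was not called.

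Complex III, the cytochrome bc1 complex, had 7 of 8 members lower, with a median of -0.30. The electron-carrying subunits were among them: Uqcrfs1, the Rieske iron-sulfur protein, at -0.38 ± 0.09 (adjusted p = 0.00668), and Cyc1, cytochrome c1, at -0.37 ± 0.09 (adjusted p = 0.0107). Uqcrc2, a core protein of the matrix side, differed by -0.43 ± 0.07 (adjusted p = 0.000355) in the average. Uqcrc2 levels at 4 weeks were 10.39, 10.33 and 10.15 in HFD mice, against 10.47, 10.37, 10.85 and 10.76 in LFD mice. At 8 weeks Uqcrc2 levels were 9.97, 10.18, 10.30 and 10.31 in HFD mice, against 10.65, 10.70, 10.51 and 10.70 in LFD mice. At 12 weeks Uqcrc2 levels were 10.04, 10.17, 9.92 and 10.17 in HFD mice, against 10.76, 10.63, 10.59 and 10.39 in LFD mice. HFD mice were below LFD mice without overlap at 8 and 12 weeks, and at 4 weeks 1 HFD value lay above 1 LFD value. Uqcrh, the hinge protein that helps dock cytochrome c1 and cytochrome c, differed by -0.29 ± 0.06 (adjusted p = 0.00274). Uqcrh levels at 4 weeks were 8.34, 8.38 and 8.31 in HFD mice, against 8.83, 8.49, 8.44 and 8.62 in LFD mice. At 8 weeks Uqcrh levels were 8.30, 8.56, 8.62 and 8.68 in HFD mice, against 8.83, 8.90, 8.67 and 8.91 in LFD mice. At 12 weeks Uqcrh levels were 8.32, 8.20, 8.36 and 8.28 in HFD mice, against 8.55, 8.69, 8.48 and 8.76 in LFD mice. Its groups were apart at 4 and 12 weeks and overlapped at 8 weeks by 1 pair of mice. Uqcrq, a small subunit, differed by -0.32 ± 0.08 (adjusted p = 0.00712). Uqcr11 was not called, at -0.12 ± 0.07 (adjusted p = 0.369).

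Complex IV, cytochrome c oxidase, had 5 of 17 members lower and a median of -0.11. Of the 10 subunits used in most tissues, 5 fell (Cox4i1, Cox5a, Cox5b, Cox7a2 and Ndufa4), with a median of -0.25. Of 7 alternative or related forms, none passed the test, with a median of 0.06. In this second class Cox4i2, a hypoxia-responsive form of subunit 4, had a value of 0.09 ± 0.09 and Ndufa4l2, the hypoxia-induced relative of Ndufa4, 0.18 ± 0.12. Cox6a2, the heart and muscle form, was at 0.18 ± 0.11, and Cox7a2l, a supercomplex assembly factor, at -0.03 ± 0.06. The testis forms Cox6b2, Cox7b2 and Cox8c lay between -0.11 and 0.06. Cox6a2, Cox7b2 and Cox8c, with Ndufs5 of complex I, were the 4 members with a mean below the median of all transcript clusters, 5.13.

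Cox5b, a zinc-binding subunit of the matrix side, had the smallest p of complex IV, at -0.42 ± 0.07 (adjusted p = 0.000545). Cox5b levels at 4 weeks were 9.82, 10.09 and 9.72 in HFD mice, against 10.04, 9.96, 10.26 and 10.29 in LFD mice. At 8 weeks Cox5b levels were 9.95, 9.99, 9.83 and 9.73 in HFD mice, against 10.45, 10.24, 10.31 and 10.30 in LFD mice. At 12 weeks Cox5b levels were 9.99, 9.88, 9.71 and 9.87 in HFD mice, against 10.18, 10.49, 10.57 and 10.39 in LFD mice. All HFD mice were below all LFD mice at 8 and 12 weeks, with a called difference of -0.54 ± 0.12 (adjusted p = 0.0118) at 12 weeks. Taken as the mean of its transcript clusters, Cox5b had a difference of -0.19 in the average and -0.26 at 12 weeks, and neither was called. Cox5a, which also lies on the matrix side, differed by -0.27 ± 0.06 (adjusted p = 0.00456). Cox5a levels at 4 weeks were 9.31, 9.20 and 9.10 in HFD mice, against 9.39, 9.16, 9.51 and 9.52 in LFD mice. At 8 weeks Cox5a levels were 9.26, 9.45, 9.48 and 9.35 in HFD mice, against 9.72, 9.59, 9.47 and 9.70 in LFD mice. At 12 weeks Cox5a levels were 9.06, 9.24, 9.09 and 8.89 in HFD mice, against 9.51, 9.37, 9.53 and 9.41 in LFD mice. It was apart between the diets at 12 weeks, where it was called, and overlapped at 4 and 8 weeks. Cox4i1, the common form of subunit 4, differed by -0.32 ± 0.07 (adjusted p = 0.00549), Cox7a2 by -0.26 ± 0.06 (adjusted p = 0.00612) and Ndufa4 by -0.33 ± 0.09 (adjusted p = 0.0225).

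Complex V, the ATP synthase, had 9 of 17 members lower, with a median of -0.21. In the catalytic head and central stalk 3 of 5 fell, among them Atp5a1, the alpha subunit, at -0.22 ± 0.06 (adjusted p = 0.0205). In the peripheral stalk 3 of 4 fell, among them Atp5j (factor 6) at -0.20 ± 0.05 (adjusted p = 0.0161). Of the 5 small membrane subunits 1 fell, Atp5l (subunit g), at -0.30 ± 0.08 (adjusted p = 0.0188). Subunit c, which forms the rotating ring, is made from 3 genes with the same mature protein. Atp5g2 and Atp5g3, whose promoters are printed above, differed by -0.23 ± 0.06 (adjusted p = 0.0182) and -0.23 ± 0.07 (adjusted p = 0.0266), and Atp5g1 was not called, at 0.10 ± 0.14 (adjusted p = 0.778).

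Atp5c1, the gamma subunit that turns inside the head, had the smallest p of complex V, at -0.34 ± 0.07 (adjusted p = 0.00128). Atp5c1 levels at 4 weeks were 7.24, 6.89 and 7.06 in HFD mice, against 7.46, 7.09, 7.45 and 7.42 in LFD mice. At 8 weeks Atp5c1 levels were 7.04, 7.10, 7.19 and 7.30 in HFD mice, against 7.65, 7.65, 7.60 and 7.54 in LFD mice. At 12 weeks Atp5c1 levels were 7.07, 7.08, 6.83 and 7.06 in HFD mice, against 7.24, 7.30, 7.53 and 7.11 in LFD mice. The diets were apart at 8 and 12 weeks and overlapped at 4 weeks. Atp5h, subunit d of the peripheral stalk, differed by -0.26 ± 0.06 (adjusted p = 0.0083). Atp5h levels at 4 weeks were 11.26, 11.53 and 11.13 in HFD mice, against 11.66, 11.51, 11.42 and 11.51 in LFD mice. At 8 weeks Atp5h levels were 11.61, 11.72, 11.47 and 11.84 in HFD mice, against 12.00, 11.93, 11.91 and 12.03 in LFD mice. At 12 weeks Atp5h levels were 11.83, 11.51, 11.61 and 11.74 in HFD mice, against 11.94, 12.02, 11.80 and 11.91 in LFD mice. Its groups were apart at 8 weeks alone among the 3 times. The highest average in complex V was that of Atp5d, the delta subunit of the central stalk, at 0.14 ± 0.15 (adjusted p = 0.675), which was not called. Atp5d levels at 4 weeks were 8.42, 9.82 and 9.36 in HFD mice, against 7.70, 9.01, 8.43 and 8.42 in LFD mice. At 8 weeks Atp5d levels were 7.88, 8.17, 8.04 and 7.95 in HFD mice, against 8.45, 8.24, 8.20 and 8.33 in LFD mice. At 12 weeks Atp5d levels were 8.46, 8.43, 8.24 and 8.16 in HFD mice, against 8.60, 8.42, 8.32 and 8.33 in LFD mice. Both diets had a wide spread at 4 weeks, with 8.42 to 9.82 on HFD and 7.70 to 9.01 on LFD.

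**Figure D3:**
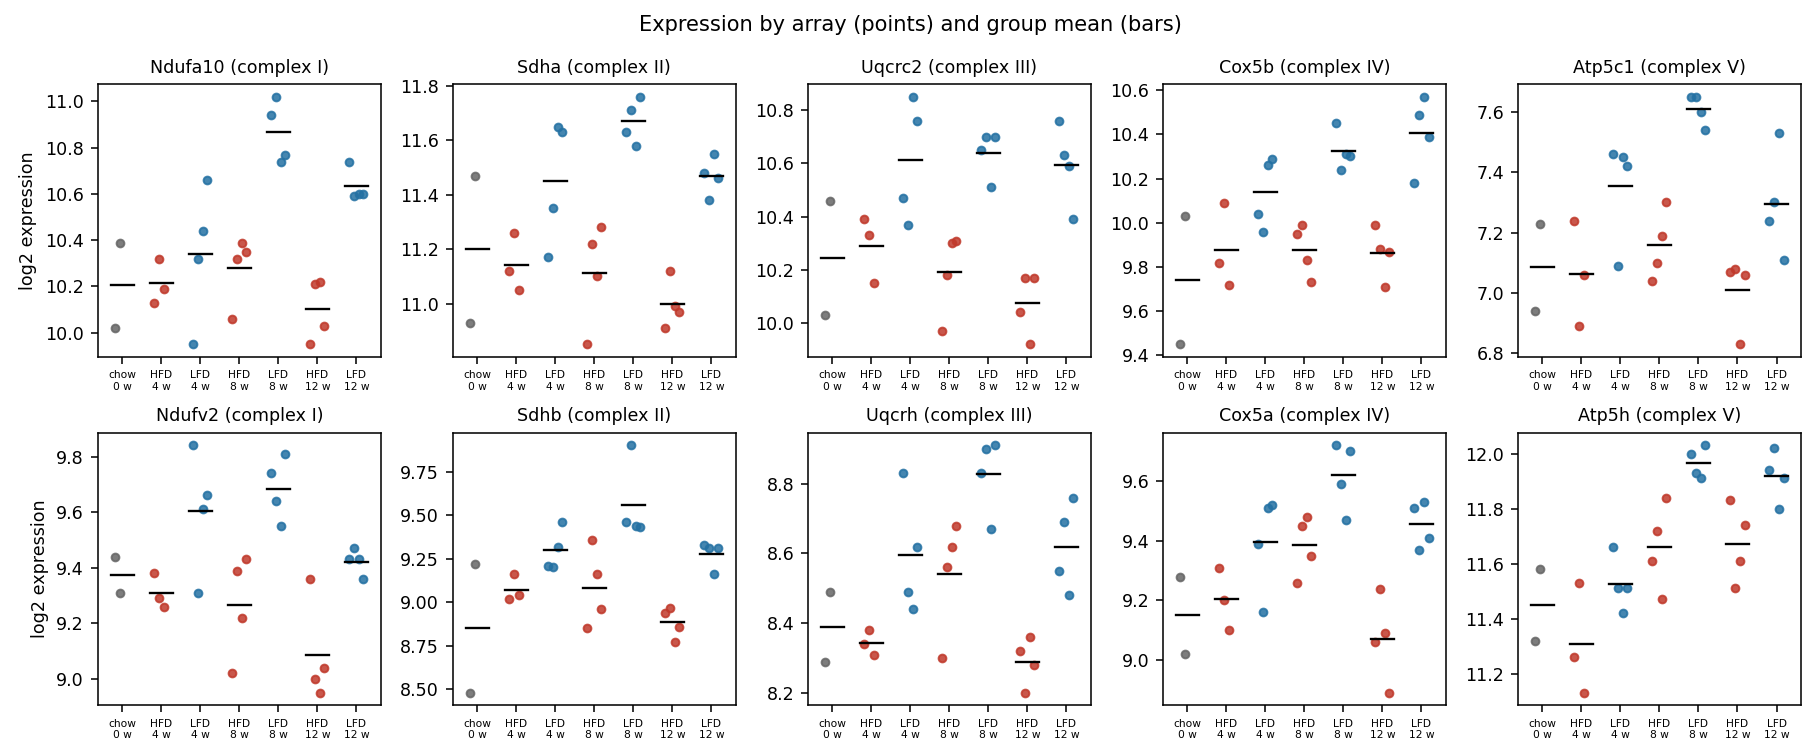
Log2 expression (vertical axes) in each array by diet and weeks on diet for the 2 members of each complex with the smallest p of the averaged difference; bars are group means. HFD values of Ndufa10, Sdha, Uqcrc2 and Cox5b lie below all LFD values at 8 and 12 weeks.

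At 4 weeks, limma called 0 of 77 members, where 0.212% of all genes were called. At an unadjusted p under 0.05 there were 12 members, where 9.33% of all genes passed. The analysis of variance with the 1.5-fold limit called 1 member, Atp5d, where 2.1% of all genes were called. In limma Atp5d had a value of 0.81 ± 0.27 (adjusted p = 0.303). HFD arrays did not overlap LFD arrays in 4 members that were lower (Ndufa5, Sdhb, Uqcrh and Cox6b2) and 2 that were higher (Ndufb3 and Atp5o), where 4.41% of all genes were lower and 4.68% higher in that way. The median differences were -0.09 in complex I, -0.17 in II, -0.15 in III, -0.10 in IV and -0.13 in V.

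At 8 weeks, 5 of 77 members were lower on HFD and 0 higher, where 1.24% of all genes were lower and 1.17% higher. They were Ndufa10, Sdha, Atp5c1 at -0.45 ± 0.11 (adjusted p = 0.0332), Ndufb8 at -0.53 ± 0.13 (adjusted p = 0.0332) and Cyc1 at -0.59 ± 0.16 (adjusted p = 0.0469). Cyc1 levels were 8.20, 8.59, 8.59 and 8.46 in HFD mice, against 9.01, 9.04, 8.94 and 9.21 in LFD mice, without overlap. HFD arrays lay below all LFD arrays in 36 of 77 members, where 6.42% of all genes did so, and above them in 1, Cox6a2, where 5.01% did. By complex these were 18 of 31, 4 of 4, 5 of 8, 4 of 17 and 5 of 17. The median differences by complex were -0.27, -0.42, -0.39, -0.19 and -0.27. The number called depended on single mice: it was 0 without HFD replicate 1 or without LFD replicate 2, 1 without LFD replicate 1 or 4, and 2 without HFD replicate 3 or LFD replicate 3. The median over members stayed between -0.25 and -0.29 in those fits. The share of all genes called in them was 0.739% to 1.69%.

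At 12 weeks, 11 of 77 members were lower on HFD and 0 higher, where 1.33% of all genes were lower and 3.13% higher. Besides Cox5b, Ndufa10 and Sdha these were Uqcrc2 at -0.52 ± 0.12 (adjusted p = 0.0153), Uqcrq at -0.52 ± 0.13 (adjusted p = 0.019), Cox7a2 at -0.39 ± 0.10 (adjusted p = 0.0259), Cox5a at -0.38 ± 0.10 (adjusted p = 0.0296), Cox6b1 at -0.36 ± 0.10 (adjusted p = 0.0309), Atp5j at -0.36 ± 0.09 (adjusted p = 0.021), Atp5g2 at -0.37 ± 0.11 (adjusted p = 0.046) and Ndufs3 at -0.38 ± 0.11 (adjusted p = 0.0493). Uqcrq levels were 5.80, 5.83, 5.73 and 5.79 in HFD mice, against 6.46, 6.37, 6.17 and 6.22 in LFD mice. Ndufs3, a subunit of the complex I core, had levels of 6.5, 6.70, 6.43 and 6.44 in HFD mice, against 6.84, 6.80, 7.00 and 6.93 in LFD mice. Neither gene overlapped between the diets. Taken as the mean of their transcript clusters, Atp5g2 and Cox5b were not called at 12 weeks. HFD arrays lay below all LFD arrays in 33 of 77 members, where 5.08% of all genes did so, and above in 0, where 7.52% did. By complex these were 10 of 31, 3 of 4, 6 of 8, 7 of 17 and 7 of 17, and the median differences were -0.27, -0.38, -0.38, -0.14 and -0.25. Both Ndufa10 and Sdha were called at 8 and at 12 weeks, and 21 members were without overlap at both, where 2.06% of all genes were. The number called was 1 without LFD replicate 1, 2 without HFD replicate 3, 4 without HFD replicate 4, and 6 without HFD replicate 1 or LFD replicate 2, 3 or 4. In those fits 2.52% to 4.1% of all genes were called. With array weights 27 members were called, where 8.06% of all genes were.

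**Figure D4:**
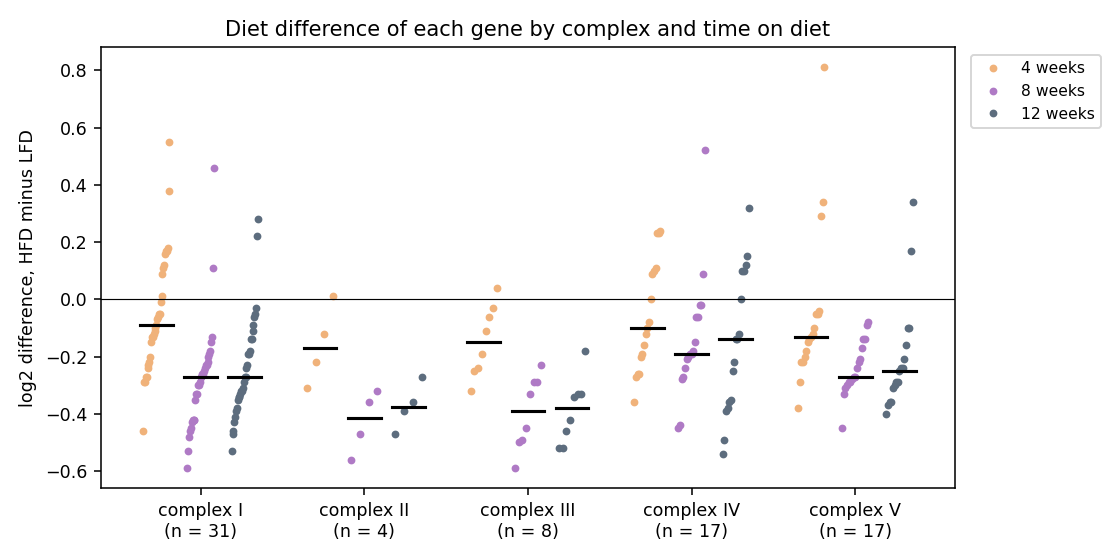
Log2 difference, HFD minus LFD, of each member (points) by complex at 4, 8 and 12 weeks, with medians as bars. Medians of complexes II and III are near -0.4 at 8 and 12 weeks, and the 4-week medians of all complexes lie between -0.17 and -0.09.

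The interaction of diet and time called 0 members and 0 of all genes with limma, a share of 0.0%. At an unadjusted p under 0.05 there were 7 members, where 5.41% of all genes passed. The analysis of variance with the fold limit called 3 members (Ndufa11, Atp5d and Atp5o). Its share over all genes is not given here, so these 3 are not read as a result about the members. A growth of the diet difference from 4 weeks onward was therefore not shown for any one member. Within HFD, 12 weeks against 4 weeks called 1 of 77 members, where 0.185% of all genes were lower. This was Atp5g2, lower at -0.50 ± 0.11 (adjusted p = 0.0491), with levels of 10.49, 10.72, 10.80 and 10.41 at 12 weeks, against 11, 11.21 and 11.09 at 4 weeks. Taken as the mean of its transcript clusters, Atp5g2 was not called in this comparison. Within LFD, 12 weeks against 4 weeks called 1 member, where 0.298% of all genes were higher. It was Ndufa13, a supernumerary subunit also known as GRIM-19, higher at 0.40 ± 0.09 (adjusted p = 0.0393), with levels of 9.54, 9.54, 9.44 and 9.44 at 12 weeks, against 9.04, 9.15, 8.90 and 9.26 at 4 weeks. Leaving out single replicates gave 0 calls in 6 of 7 fits for HFD and in 6 of 8 fits for LFD.

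Both diets were set against the same 2 chow arrays. HFD over the 3 times called 6 of 77 members, where 15.7% of all genes were called. The smallest p values were those of Ndufa4l2 at 1.04 ± 0.22 (adjusted p = 0.00343), Atp5g2 at -0.50 ± 0.11 (adjusted p = 0.00546), Ndufb6 at 0.45 ± 0.12 (adjusted p = 0.0124), Atp5e at 0.66 ± 0.19 (adjusted p = 0.0214) and Atp5pb at 0.37 ± 0.11 (adjusted p = 0.0247). LFD over the 3 times called 26 members, all higher than chow, where 5.8% of all genes were higher. The smallest p values were those of Ndufb6 at 0.62 ± 0.12 (adjusted p = 0.00262), Atp5pb at 0.58 ± 0.11 (adjusted p = 0.00281), Sdhd at 0.56 ± 0.12 (adjusted p = 0.00758), Ndufb5 at 0.39 ± 0.09 (adjusted p = 0.0111) and Atp5e at 0.80 ± 0.19 (adjusted p = 0.0111). Chow replicate 1, rich in epididymis transcripts, decided these counts: without it HFD called 1 member and LFD 1, and with array weights both called 0. Without chow replicate 2, HFD called 13 members and LFD 36. The shares over all genes in these refits are not given here.

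Genes next to the respiratory chain in the same pathway were read from lists that were chosen with earlier results known, and are given as counts in the averaged comparison, where 4.44% of all genes were lower. Pyruvate dehydrogenase and the pyruvate carrier bring glucose carbon into the cycle. Their list also holds pyruvate carboxylase (Pcx) and the kinases Pdk1, Pdk2 and Pdk4. It had 8 of 9 genes lower and 0 higher, with a median of -0.71. Pdha1, the alpha subunit of pyruvate dehydrogenase, differed by -0.78 ± 0.08 (adjusted p = 3.71e-06), Mpc1, a subunit of the pyruvate carrier, by -0.71 ± 0.09 (adjusted p = 1.3e-05) and Pdk1, a kinase that inhibits the enzyme, by -0.90 ± 0.11 (adjusted p = 1.83e-05). Pdk4, the kinase induced by fat oxidation, was the one not called, at 0.59 ± 0.21 (adjusted p = 0.0822), and was named after its value was seen. The tricarboxylic acid cycle had 7 of 12 lower, among them Suclg2 at -0.52 ± 0.10 (adjusted p = 0.000795), Idh3b at -0.40 ± 0.08 (adjusted p = 0.00103) and Cs, citrate synthase, at -0.51 ± 0.10 (adjusted p = 0.00229). Assembly factors had 6 of 43 lower, among them Atpaf1 (-0.32 ± 0.07), Ttc19 (-0.30 ± 0.07) and Foxred1 (-0.24 ± 0.06). Carriers and coenzyme Q genes had 3 of 16 lower and import and outer membrane genes 3 of 15, among them Phb2 (-0.22 ± 0.05), Timm44 (-0.29 ± 0.07) and Vdac1, the outer membrane channel (-0.22 ± 0.06).

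The 10 subunits measured from mitochondrial DNA had 0 lower and 0 higher, with a median of -0.05 and a range of -0.10 to 0.02. At an unadjusted p under 0.05, 1 of them passed, where 21.9% of all genes did. This was ND3, at -0.10 ± 0.05 (adjusted p = 0.188). In 9 of the 10 subunits values were 12.83 to 14.01, close to the highest value in the table, 14.13, and whether the array still resolves changes at that level was not tested. ND6, the one gene on the other strand, had 9.68 to 11.26 and a difference of 0.02 ± 0.15 (adjusted p = 0.973). Of the regulators, 4 of 17 fell: Ppargc1a at -0.71 ± 0.11 (adjusted p = 0.000118), Ppargc1b at -0.60 ± 0.12 (adjusted p = 0.00251), Sirt3, a mitochondrial deacylase, at -0.36 ± 0.08 (adjusted p = 0.00459), and Sirt1 at -0.18 ± 0.05 (adjusted p = 0.0382). The difference in Ppargc1a was -0.95 ± 0.18 (adjusted p = 0.00645) at 8 weeks and -0.75 ± 0.18 (adjusted p = 0.0152) at 12 weeks. Esrra, which encodes ERRα, had a value of -0.18 ± 0.06 (adjusted p = 0.0646). Nrf1 (-0.06 ± 0.07), Gabpa (0.01 ± 0.07) and Tfam, a factor that packs mitochondrial DNA (-0.11 ± 0.07), were not called.

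**Figure D5:**
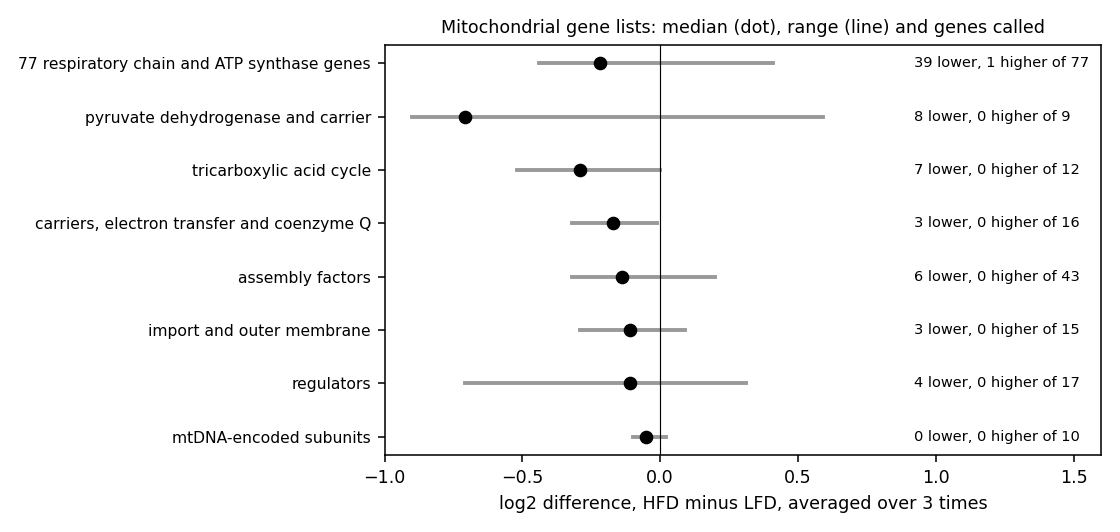
Averaged log2 difference, HFD minus LFD, of the 77 members and of 7 lists of other mitochondrial genes; dots are medians, lines ranges over genes, and the numbers count genes called. The list of pyruvate dehydrogenase and carrier, which also holds Pcx and kinases, has the lowest median, -0.71. The subunits encoded in mitochondrial DNA have the highest, -0.05.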

How the data were processed

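Per the labels and the design text, the authors processed all arrays with Transcriptome Analysis Console 4.0.2 and deposited log2 expression values. The sources used here do not give how arrays were summarised and normalized. There were 34472 transcript clusters, with values from 1.73 to 14.13 and array medians of 5.04 to 5.36. Clusters with 1 gene symbol (23521) were kept, and the cluster with the highest mean stood for each of 22180 genes. Symbols are those of the platform annotation, and Atp5 and other names can be older than current ones.

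A model with a mean for each of 7 groups was fitted to all 25 arrays by limma 3.58.1 under R 4.3.3 (18 residual degrees of freedom), and p values were Benjamini-Hochberg adjusted over all genes of a comparison, with calls at 0.05. The limma fit was tested on simulated data. Differences are log2 values ± standard error, and 2 to 4 arrays a group limit precision. Members and lists were chosen with earlier results of these data known. Named genes were the called members, up to 30 a diet comparison by p, the extremes of each complex, the alternative forms, 3 called genes a list and fixed regulators. Arrays were called without overlap when every HFD value lay on one side of every LFD value. Alternatives were other normalizations, filters, weights, blocks, covariates and left-out arrays; those on macrophage and adipocyte covariates, and on hepatocyte-rich arrays at 8 and 12 weeks alone, were added after the data had been seen.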

Additional observations from a re-analysis of the deposited data

Results flagged for a closer look

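In groups of 4 mice, 1 array was taken as standing apart where its gap to the nearest other exceeded 0.829 of the group's range, which chance gives in about 1 group in 20. Of 80 checks on 10 members and the complex and member means, 7 stood apart. Ndufa10 was high in LFD 12-week replicate 1 (10.74, nearest 10.60). Sdhb was high in LFD 8-week replicate 2 (9.90, nearest 9.46) and low in LFD 12-week replicate 3 (9.16, nearest 9.31). Atp5c1 was low in HFD 12-week replicate 3 (6.83, nearest 7.06) and in LFD 4-week replicate 2 (7.09, nearest 7.42). The complex II mean was high in LFD 8-week replicate 2 (10.32, nearest 10.19), and the complex III mean was low in LFD 8-week replicate 3 (8.94, nearest 9.07).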

How the results depend on the processing

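Among the members called for HFD against LFD at 8 weeks, at 12 weeks or in the average, none changed sign under the alternatives run; signs were not followed for other members or comparisons. For the averaged diet difference, 10.5% of all genes were called in the main fit. The share was 9.59% with centring, 15% with array weights and 19.4% without dim genes. The count of 40 called members stayed at 38 to 46 under 11 alternatives and at 32 to 42 when single replicates were left out. It was 25 in hepatocyte-rich arrays at 8 and 12 weeks, and 0 with the analysis of variance, in the 14 other arrays alone, and with the macrophage covariate. Shares over all genes are not given here for the hepatocyte-rich fit and the left-out replicates. Those counts are not read as results about the members. At 4 weeks the count was 0, where 0.212% of all genes were called, and it stayed 0 without single replicates. It became 1 (Atp5d, higher on HFD) with the hepatocyte and epididymis covariates (1.04% of all genes). It was also 1 without the 3 epididymis-rich arrays (0.298%) and by analysis of variance (2.1%). At 8 weeks the count was 5, where 2.4% of all genes were called. It became 11 with median centring (2.12% of all genes), 13 without dim genes (5.69%), 20 with array weights (5.71%) and 8 with the replicate block (2.68%). It was 12 with the hepatocyte block (3.11%), 18 with the covariates (4.38%) and 20 without the 3 epididymis-rich arrays (5.64%). By analysis of variance it was 2 (3.67%), in hepatocyte-rich arrays 1 (0.951%), and without single replicates 0 to 5. In hepatocyte-poor arrays, with 1 HFD array, the median difference was -0.35. At 12 weeks the count was 11, where 4.46% of all genes were called. It became 7 with centring (3.94% of all genes), 27 with weights (8.06%), 24 without the 3 arrays (8.41%) and 0 by analysis of variance (5.12%). Without single replicates it was 1 to 11. In hepatocyte-poor arrays, with 1 array of each diet, the median difference was -0.25. The interaction count of 0 became 3 by analysis of variance, with no share over all genes given here, and was 0 to 0 without single replicates.

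For HFD at 12 against 4 weeks, the count of 1 became 0 with the 2 groups alone, centring, cluster means, the replicate block, the hepatocyte block and hepatocyte-poor arrays, and 2 with covariates and by analysis of variance, and 0 to 2 without single replicates. For LFD at 12 against 4 weeks, the count of 1 became 0 with the 2 groups alone, quantile normalization, centring, the hepatocyte block, covariates, without the 3 arrays and in hepatocyte-poor arrays, 2 without dim genes and with the replicate block, and 5 with weights, and 0 to 4 without single replicates. HFD against chow moved from 6 to 0 with weights, 3 without the 3 arrays and 2 by analysis of variance, and 1 to 13 without single replicates. LFD against chow moved from 26 to 4 with the compared groups alone, 0 with weights, 15 with the hepatocyte block, 2 with covariates, 3 without the 3 arrays and 5 by analysis of variance, and 1 to 36 without single replicates. The causes were not tested, and smaller sets of arrays leave fewer degrees of freedom. The counts of this paragraph are given without shares over all genes and are not read as results about the members.

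Replicate numbers are shared between groups in the labels. Of 67 same-numbered pairs of arrays 29 correlated above 0.1 in their deviations from group means (median 0.0506, lowest -0.61), so the numbers were not taken as pairs. With the replicate block the averaged count was 38 and the 12-week count 15.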
